A study of Mus musculus with 4 samples.

Results

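The Ly6 family surface proteins were followed through the single-cell RNA profiles of mouse bone marrow as 7 genes, *Ly6a*, *Ly6c1*, *Ly6c2*, *Ly6d*, *Ly6e*, *Ly6g* and *Ly6k*. They were taken by name from the 18695 genes counted. All 7 had at least 1 UMI (a unique molecular identifier, the count of 1 captured RNA molecule) in the libraries of Lin-/CD11b+ cells, whereas 6 of them, all but *Ly6d*, had any in the libraries of sorted granulocyte-monocyte progenitors (GMPs). The study compared marrow with and without *Tet2*, which codes for an enzyme that oxidizes methylated cytosine. WT cells came from Mx1-Cre-negative *Tet2* fl/fl littermates, in which *Tet2* is flanked by loxP sites but intact, and *Tet2* KO cells from Mx1-Cre *Tet2* fl/fl mice. Mx1-Cre is driven by an interferon-responsive promoter, so that deletion follows interferon and is not limited to blood cells. Both genotypes had 4 doses of pI:pC, a double-stranded RNA mimic that induces interferon, at 12.5 ug per g of body weight, and no group without pI:pC was profiled here. Each genotype gave a library of GMPs, sorted as Lin- cKit+ Sca1- CD34+ CD16/32+ cells, and a library of Lin- progenitors with CD11b+ myeloid cells, called the Lin-/CD11b+ sort. The design holds 1 library per genotype and sort, so no difference between genotypes has a replicate check, no test was made, and the 95% intervals given below cover counting error only.

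Ly6 proteins are small, cysteine-rich proteins that fold into a finger-like domain and are held at the outer face of the membrane by a lipid, the glycosylphosphatidylinositol (GPI) anchor. In blood they serve as the markers by which cells are sorted. *Ly6a* codes for Sca1, the marker of stem cells and early progenitors, *Ly6c1* and *Ly6c2* for the Ly6C proteins of monocytes, *Ly6g* for the marker of neutrophils, and *Ly6d* for a marker of lymphoid progenitors that turn towards B cells. *Ly6e* is widely transcribed and is known as an interferon-induced factor that restricts virus entry, and *Ly6k* is known from testis. The GMP gate excludes cells with Sca1 protein, so low *Ly6a* in that sort is not read as a finding. The antibodies of the study include ones against Ly6C, Ly6G and Ly-6A/E, and the sources used here do not say which of them formed the lineage cocktail, so levels of these genes are compared between genotypes within a sort and not between sorts.

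The members lie within 397 kb of chromosome 15 (GRCm38, the build also called mm10, GENCODE M21 annotation), *Ly6d* at chr15:74762056-74763620, *Ly6k* at chr15:74796874-74799986, *Ly6e* at chr15:74955051-74959905, *Ly6a* at chr15:74994877-74998031, *Ly6c1* at chr15:75044018-75048830, *Ly6c2* at chr15:75108158-75111970 and *Ly6g* at chr15:75155240-75159126. Of the 7, *Ly6e* and *Ly6g* are on the plus strand and 5 are on the minus strand. *Ly6k* lies inside an antisense gene, *Gm17189* (chr15:74784065-74800640, plus strand), and the sources used here do not say how the counting used strand. *Gm17189* itself had 1 UMI in all 4 libraries together.

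**Figure D1:**
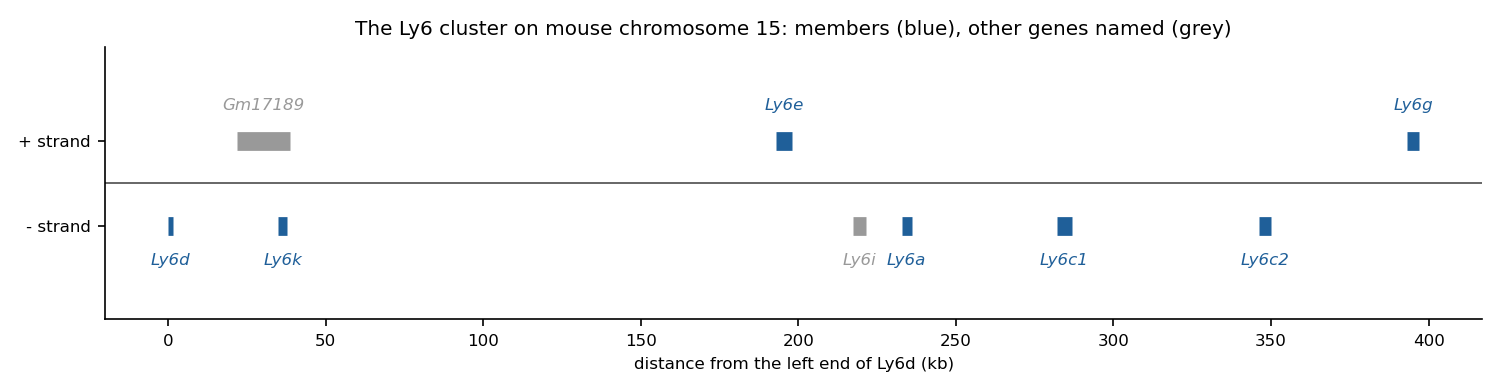
Map of the members on chromosome 15, to scale. The x axis is the distance in kb from the left end of *Ly6d*, genes of the plus strand are drawn above the line and those of the minus strand below it, members are blue and the neighbours *Gm17189* and *Ly6i* grey. *Ly6d* and *Ly6k* sit at the left end, apart from the other 5 members.

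The sequences below are shown because the 2 Ly6C genes are near-identical copies, which bears on how their counts can be read. The coding sequences of *Ly6c1* and *Ly6c2* are 393 bases each and differ at 9, an identity of 97.7%, whereas *Ly6a* and *Ly6g* share 83.1% and all pairs that include *Ly6d*, *Ly6e* or *Ly6k* share 53.6% or less. The first 120 coding bases, spliced, follow 5′ to 3′ from the GENCODE transcripts, with the 6 bases that differ between the copies in capitals.
Ly6c1 (minus strand, from chr15:75047420-75048511): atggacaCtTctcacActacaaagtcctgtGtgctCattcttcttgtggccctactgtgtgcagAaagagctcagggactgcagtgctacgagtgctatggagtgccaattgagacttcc
Ly6c2 (minus strand, from chr15:75110578-75111667): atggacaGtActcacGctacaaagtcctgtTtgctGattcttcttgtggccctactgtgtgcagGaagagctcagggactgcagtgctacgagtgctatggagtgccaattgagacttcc
The last 300 bases of the *Ly6c1* transcript, from which 3′ tags come, align to *Ly6c2* with 98.0% identity. A read that fits both copies cannot be assigned to one, so the counts of both genes are uncertain as to the copy.

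The RefSeq (GRCm38.p6) upstream sequences used here cover 3 of the 7 members, *Ly6c1*, *Ly6c2* and *Ly6g*. Their counted levels in myeloid cells were far apart, with the copy uncertain for the 2 Ly6C genes. Each has 2 recorded start sites. The 150 bases before the first are given with the letters GAGGAAGT, the core that the myeloid factor PU.1 is known to bind, in capitals.
Ly6c1 (minus strand, chr15:75048838-75048987): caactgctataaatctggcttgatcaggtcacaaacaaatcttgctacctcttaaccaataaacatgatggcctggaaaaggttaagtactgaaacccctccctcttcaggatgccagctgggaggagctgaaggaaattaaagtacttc
Ly6c2 (minus strand, chr15:75111972-75112121): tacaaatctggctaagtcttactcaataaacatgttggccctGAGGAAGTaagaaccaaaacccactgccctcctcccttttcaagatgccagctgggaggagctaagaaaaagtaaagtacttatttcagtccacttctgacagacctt
Ly6g (plus strand, chr15:75155111-75155260): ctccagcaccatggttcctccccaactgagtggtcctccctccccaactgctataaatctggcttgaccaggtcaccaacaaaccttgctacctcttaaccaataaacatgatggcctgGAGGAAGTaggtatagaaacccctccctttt
The aligned stretches of the 250 upstream bases are 72.2% identical between *Ly6c1* and *Ly6c2* and 75.1% between *Ly6c1* and *Ly6g*. GAGGAAGT was searched on both strands after the sequences had been seen, and it stands in 2.44% of the 32851 RefSeq upstream windows of 250 bases. Across from it *Ly6c1* has gaaaaggt, which shares 5 of the 8 letters. Before the other recorded start of *Ly6c1*, however, GAGGAAGT stands at position -127, so the letters do not set *Ly6c1* apart from the other two. The core of the interferon-stimulated response element, taken as 2 copies of GAAA set 2 bases apart, was in none of the windows before either start of these 3 genes, against 2.98% of all windows. Such matches describe letters only and say nothing about binding.

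The libraries held 1258 to 3068 cells and 22681380 to 42561110 UMIs in 8969 cells in all, with medians of 10417 to 18713 UMIs per cell. Any pair of libraries shared 4 to 8 cell barcodes. The share of cells at or over 5% mitochondrial UMIs was 2.29% to 9.22%. Cells were clustered without the 7 members, and a cluster was named only from markers that hold no Ly6 gene. This gave HSPC-like (stem and early progenitor) cells, mono-biased GMP-like and neutro-biased GMP-like cells, neutrophil-like, monocyte-like, basophil-like, plasma-like, DC-like (dendritic), B-like and T/NK-like cells, a cluster tied between plasmacytoid and other dendritic markers (pDC/DC-like), and clusters 1 and 12 that stayed unnamed, with *Ung* and *Mpo* and with *Dntt*, *Cox6a2*, *Il7r* and *Flt3* among the leading genes. Each named type had 6 or more of its 10 to 12 markers at least 1.5-fold above the other cells. The T/NK-like cluster also had 8 of the monocyte markers above the rest, and the B-like cluster 5 of the DC markers. *Tet2* was at 13.02 and 16.99 counts per 1e6 UMIs (CPM) in the WT and *Tet2* KO GMP libraries and at 13.4 and 20.7 CPM in the Lin-/CD11b+ libraries, but 3′ tags outside a deleted exon do not check the deletion. *Xist* was found in 97.9% to 100% of the cells of every library.

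For each cell type with at least 50 cells of both genotypes, UMIs were summed per library and the genes with at least 20 UMIs over both were compared as CPM + 1, with 1.5-fold as the limit. Members past it are read against the share of all genes past it. In the GMP sort, 1 of 5 members was past the limit in mono-biased GMP-like cells (435 WT and 955 *Tet2* KO cells) against 5.27% of 10565 genes, 2 of 4 in neutro-biased GMP-like cells (346 and 801 cells) against 5.74% of 10312 genes, 1 of 4 in cluster 1 (170 and 501 cells) against 8.25% of 9545 genes, and 0 of 2 in basophil-like cells (106 and 150 cells) against 15.9% of 7385 genes. Within the Lin-/CD11b+ sort it was 3 of 5 in HSPC-like cells (261 and 609 cells) against 8.70% of 10180 genes, 2 of 5 in monocyte-like cells (276 and 551 cells) against 13.4% of 9344 genes, and 3 of 5 in pDC/DC-like cells (277 and 429 cells) against 12.1% of 9363 genes. The limit was passed by 1 of 5 in neutrophil-like cells (149 and 159 cells) against 27.8% of 6334 genes, a share near that of all genes, by 4 of 5 in plasma-like cells (158 and 167 cells) against 20% (1184 of 5911 genes), and by 2 of 5 in cluster 12 (85 and 77 cells) against 17.2% of 6198 genes. Members with fewer than 20 UMIs in a comparison were left out of it. Across all genes the log2 ratios themselves had a median of 0.28 in neutrophil-like and 0.13 in plasma-like cells, so that ratios there are read relative to these shifts. The other 8 medians lay between -0.04 and 0.02.

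**Figure D2:**
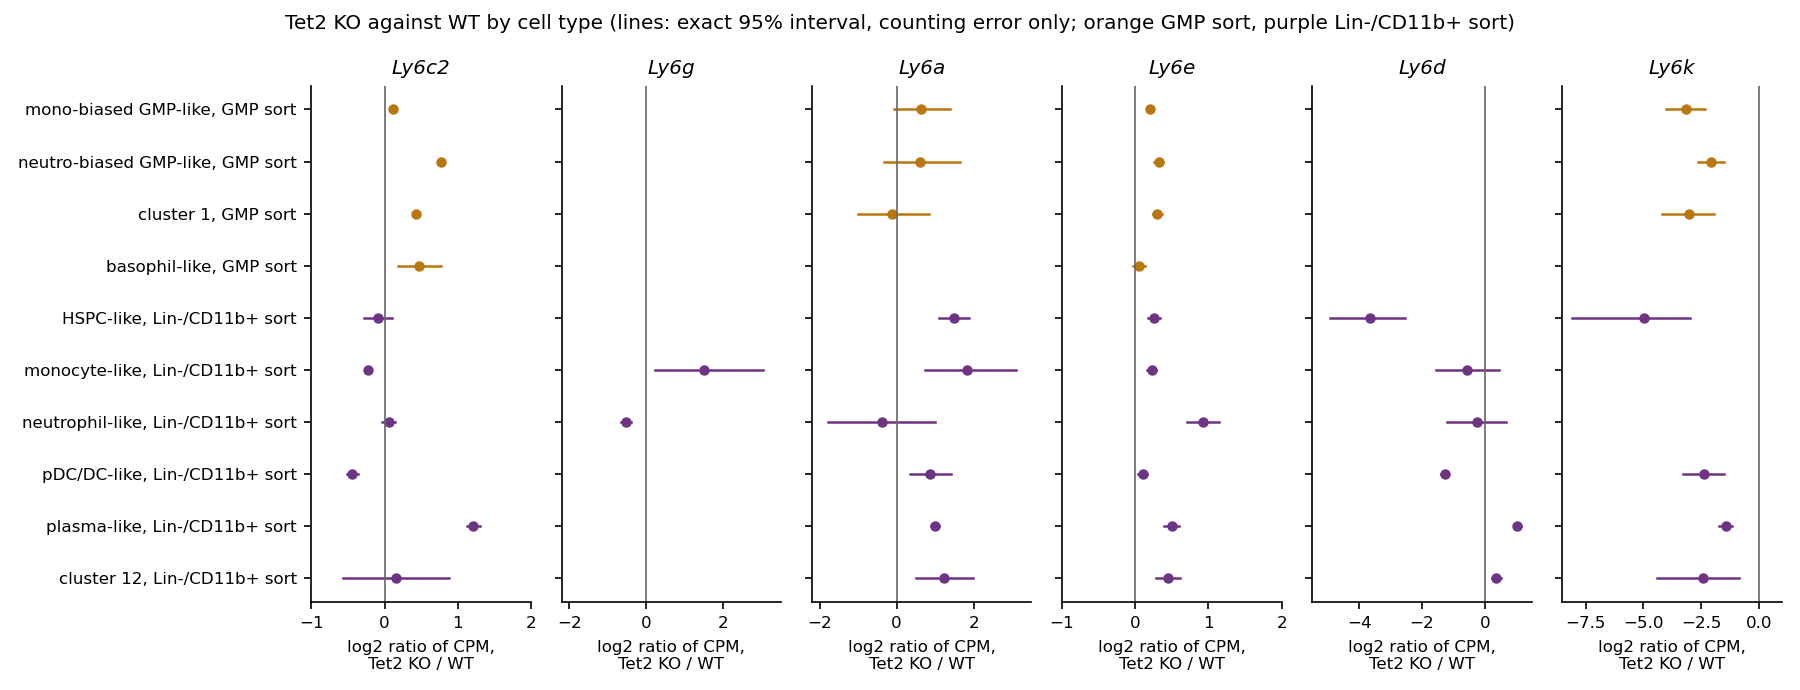
Ratios of *Tet2* KO to WT CPM on a log2 axis for 6 members (*Ly6c1* is left out) in 10 comparisons. Points are ratios of summed UMIs, lines exact 95% intervals for counting error, and a missing point has fewer than 20 UMIs. *Ly6k* lies left of 0 in all 7 comparisons drawn and *Ly6e* right of 0 in all 10, whereas *Ly6a*, *Ly6c2*, *Ly6d* and *Ly6g* lie on both sides.

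*Ly6c2*, the Ly6C gene of monocytes, was highest in the monocytic lineage, and its differences past 1.5-fold between genotypes, over whole types, lay in neutro-biased GMP-like and HSPC-like cells of the GMP sort and in plasma-like cells. In the WT Lin-/CD11b+ library it was at 4027 CPM in monocyte-like, 3262 in mono-biased GMP-like, 1552 in neutro-biased GMP-like, 1421 in cluster 1, 1291 in neutrophil-like and 1052 in pDC/DC-like cells, then at 538 in plasma-like, 157 in basophil-like, 105 in HSPC-like and 39.4 in cluster 12 cells. No neighbours in this order had overlapping intervals. With each cell thinned to 5000 UMIs, 100% of WT monocyte-like cells and 98.1% of mono-biased GMP-like cells held a *Ly6c2* UMI, against 17.6% in cluster 12 and 16.7% in basophil-like cells (median depths 13794 UMIs in mono-biased GMP-like, 9743 in cluster 12 and 7734 in basophil-like cells).

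In neutro-biased GMP-like cells of the GMP sort, *Ly6c2* was at 1365 CPM in WT and 2339 CPM in *Tet2* KO cells. This is a log2 ratio of 0.78 (interval 0.74 to 0.81), and the median over single cells went from 1196 to 2242 CPM. With types gated on markers of single cells instead of clusters, the log2 ratio of CPM + 1 was 0.44 (raw markers) and 0.58 (scaled markers), both under the 1.5-fold limit. The same type in the Lin-/CD11b+ sort had 1552 and 2272 CPM, a log2 ratio of 0.55 (0.49 to 0.61), also under it. Cluster 1 of the GMP sort had 2094 and 2822 CPM (log2 ratio 0.43, 0.39 to 0.47), whereas mono-biased GMP-like cells differed little, with 3183 and 3449 CPM (0.12, 0.09 to 0.14). Thus the *Tet2* KO level was higher in each of these 3 progenitor groups.

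Monocyte-like, pDC/DC-like and neutrophil-like cells showed the opposite sign or little difference. In monocyte-like cells *Ly6c2* was at 4027 CPM in WT and 3437 CPM in *Tet2* KO cells, a log2 ratio of -0.23 (-0.26 to -0.19). The pDC/DC-like cells had 1052 and 774 CPM (-0.44, -0.52 to -0.37), and neutrophil-like cells 1291 and 1340 CPM (0.05, -0.04 to 0.14, below 0 after TMM scaling). None of these 3 was past 1.5-fold over the whole type. At a finer resolution the pDC/DC-like cluster came apart into a DC-like part with 1506 and 991 CPM (-0.60, -0.69 to -0.51), which was past it, and a pDC-like part with 582 and 488 CPM (-0.26, -0.40 to -0.11). Basophil-like cells of the GMP sort had 121 and 168 CPM (0.47, 0.18 to 0.76), and 3 WT cells held 58.2% of the WT UMIs. That ratio was past 1.5-fold by the mean over cells, with thinning, with scaled gating, without the highest doublet scores and without the 3 highest cells of each library, whereas basophil-like cells of the Lin-/CD11b+ sort had 157 and 140 CPM (-0.17, -0.56 to 0.24).

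HSPC-like cells differed in *Ly6c2* between genotypes in the GMP sort. Those of the GMP sort had 136 CPM in WT and 436 CPM in *Tet2* KO cells (log2 ratio 1.68, 1.54 to 1.82), and those of the Lin-/CD11b+ sort had 105 and 98.0 CPM (-0.09, -0.29 to 0.10). The share of thinned cells with a UMI in the GMP sort was 36.3% for WT and 62.0% for *Tet2* KO (70.5% and 86.3% before thinning), against 19.9% and 19.2% in the other (31.4% and 30.4%). Thinned basophil-like cells of the same 2 GMP libraries, low in the gene, held a UMI in 27.4% and 42.7%. The WT intervals of the 2 types overlapped (29.5% to 43.6% in HSPC-like, 19.1% to 36.9% in basophil-like cells). Both HSPC-like clusters showed the difference between genotypes in the GMP sort, with log2 ratios of 1.60 in cluster 5 and 1.68 in cluster 8, whereas in the Lin-/CD11b+ sort these were -0.67 and 0.31. The difference between sorts was not tested.

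Plasma-like cells had 538 CPM of *Ly6c2* in WT and 1247 CPM in *Tet2* KO cells, a log2 ratio of 1.21 (1.12 to 1.31). This sum rested on few cells. The 3 highest cells held 34.9% of the WT UMIs and 45.4% of the *Tet2* KO UMIs, 1 *Tet2* KO cell held 469, and the thinned share of cells with a UMI was 34.8% and 42.5%, with overlapping intervals (27.4% to 42.8% and 34.9% to 50.4%). Without the 3 highest cells of each library the log2 ratio of CPM + 1 was 0.97, and with cells gated on scaled markers it was 0.51, under the 1.5-fold limit.

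*Ly6c1*, the near-identical copy, stayed close to the floor. Whole libraries had 27, 56, 15 and 35 UMIs of it (1.18, 1.32, 0.661 and 1.03 CPM in the WT GMP, *Tet2* KO GMP, WT Lin-/CD11b+ and *Tet2* KO Lin-/CD11b+ library), and no cell had more than 3. Only mono-biased GMP-like cells of the GMP sort passed 20 UMIs, with 1.96 CPM in WT and 1.86 CPM in *Tet2* KO cells (log2 ratio -0.08, -0.999 to 0.896), and the other 9 comparisons had fewer. Where *Ly6c2* was high, *Ly6c1* was at 2.22 CPM or less, and adding both copies moved no *Ly6c2* level beyond its interval in 33 profiles of a type in a library.

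**Figure D3:**
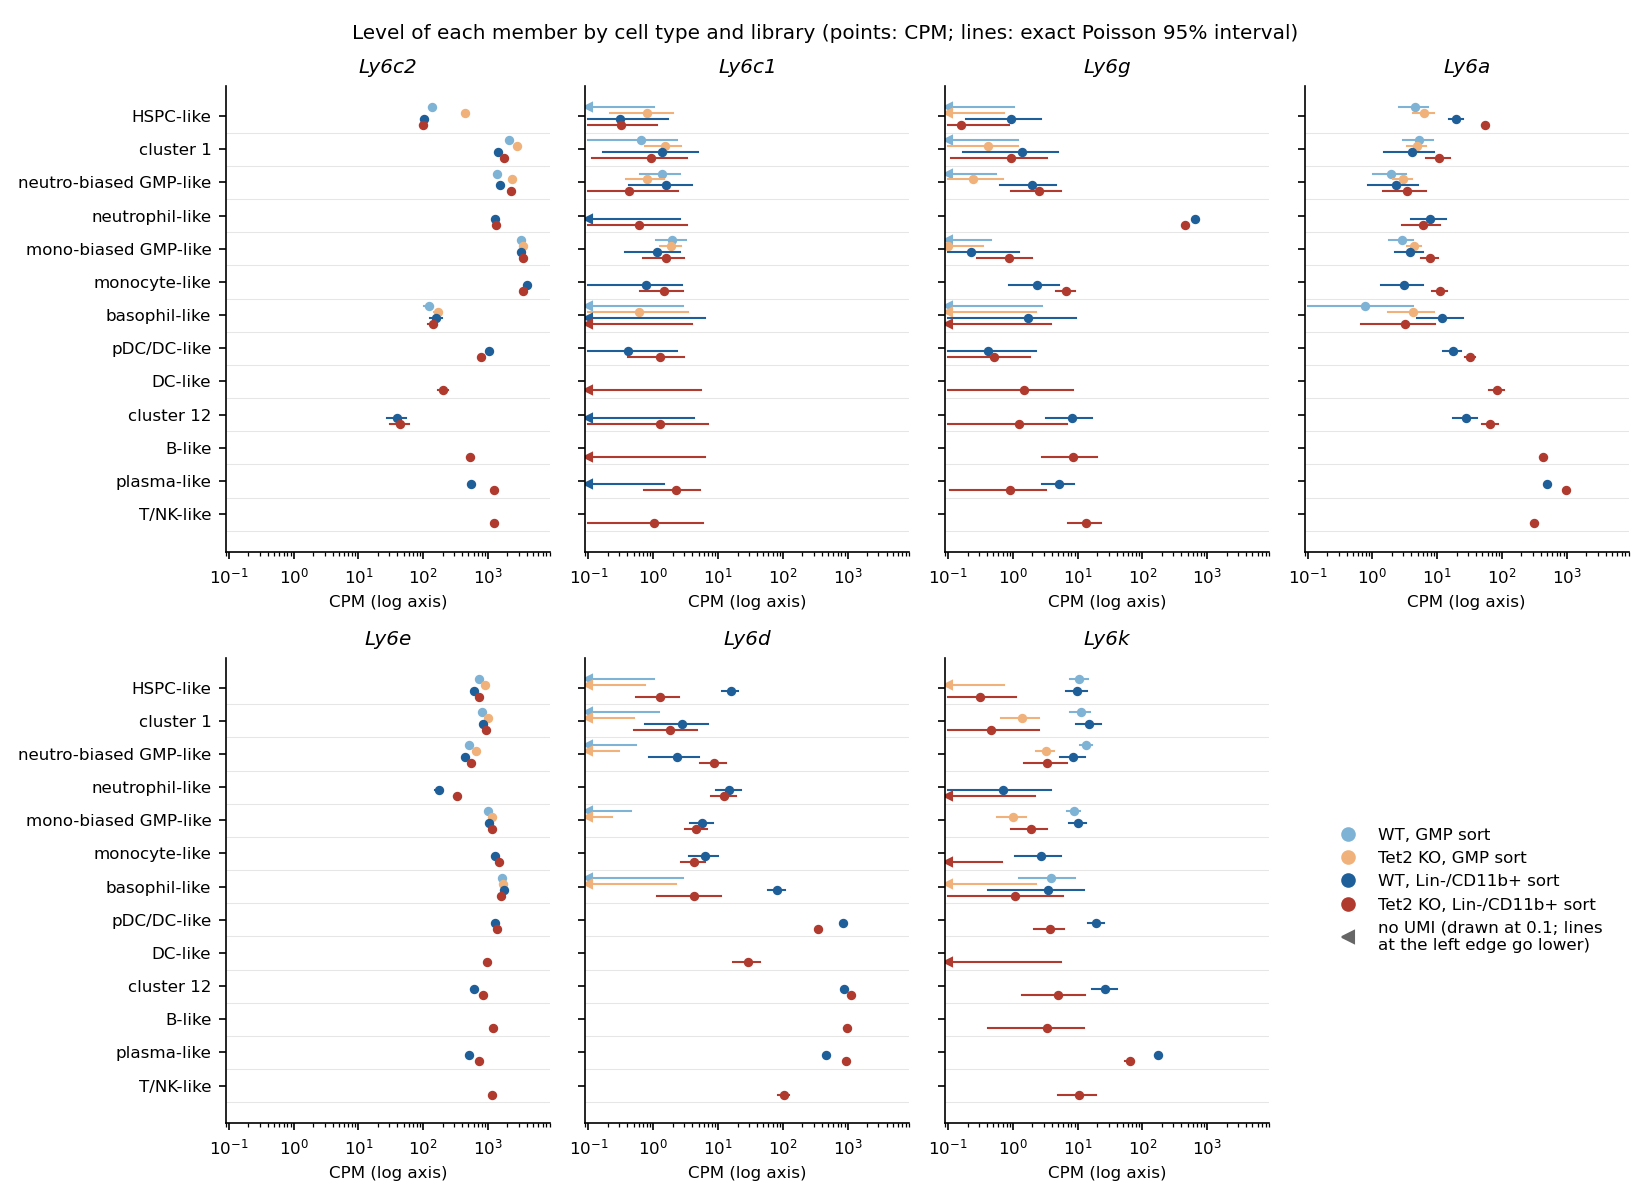
CPM of each member (log axis) by cell type and library, with at least 50 cells per point and exact Poisson 95% intervals as lines. *Ly6g* stands out in neutrophil-like cells alone, and *Ly6e* spans a narrower range than *Ly6c2*. *Ly6d* has no UMI in the GMP sort, and *Ly6k* has its WT points to the right of the *Tet2* KO points.

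*Ly6g*, the neutrophil marker, was nearly confined to neutrophil-like cells, which held 916 of its 955 UMIs in the WT and 757 of its 831 UMIs in the *Tet2* KO Lin-/CD11b+ library. There it was at 647 CPM (606 to 690) in WT and 449 CPM (418 to 482) in *Tet2* KO cells, a log2 ratio of -0.53 (-0.67 to -0.39), under the 1.5-fold limit as summed and past it after TMM scaling, which takes out the shift of 0.28 in all genes there. The share of cells with a UMI was 85.2% and 78.0%, or 79.2% and 69.2% after thinning, against 0.383% and 0.164% of thinned HSPC-like cells (median depths 8865 and 8996 UMIs in neutrophil-like, 11830 and 9971 in HSPC-like cells).

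Monocyte-like cells had 6 *Ly6g* UMIs in WT and 36 in *Tet2* KO cells, 2.34 and 6.59 CPM, a log2 ratio of 1.5 (0.23 to 3.03). After thinning, 1.45% and 1.81% of the cells held one, and no cell had more than 5 UMIs, so the level rests on few UMIs in few cells and no change is read from it. The GMP sort had 6 *Ly6g* UMIs in the WT library, all in 1 cell, and 7 in the *Tet2* KO library.

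*Ly6a*, which codes for Sca1, was highest in plasma-like cells, and in the Lin-/CD11b+ sort it was found at a higher level and in a larger share of HSPC-like cells in the *Tet2* KO than in the WT library. In the WT Lin-/CD11b+ library it was at 491 CPM in plasma-like cells, 27.8 in cluster 12, 19.6 in HSPC-like and 17.3 in pDC/DC-like cells, and between 2.34 and 12.1 CPM in the other 6 types with 50 cells. The interval of plasma-like cells (464 to 520) lay above all others, and each lower neighbour overlapped the next.

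The Lin-/CD11b+ sort has no stated Sca1 gate, and its HSPC-like cells had 64 *Ly6a* UMIs in WT and 350 in *Tet2* KO cells, that is 19.6 CPM (15.1 to 25.1) and 54.8 CPM (49.2 to 60.9). The log2 ratio was 1.48 (1.09 to 1.89). A UMI was found in 16.5% of the WT and 30.0% of the *Tet2* KO cells, or 10.3% and 22.0% after thinning, against a background of 0.610% and 2.84% in thinned neutro-biased GMP-like cells of the same libraries (median depths 11830 and 9971 UMIs in HSPC-like, 15556 UMIs in WT neutro-biased GMP-like cells). Within cluster 5, with 12 HSPC markers above the rest, the level was 31.9 and 80.4 CPM, and within cluster 8, with 7, it was 9.11 and 25.3 CPM, so both clusters had it. In the Sca1- GMP sort HSPC-like cells had 4.46 and 6.18 CPM, with overlapping intervals, and 7.89% and 7.67% of them held a UMI (2.63% and 3.33% after thinning).

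Other types of the Lin-/CD11b+ sort had higher *Ly6a* in *Tet2* KO cells as well. In plasma-like cells the level was 491 CPM in WT and 974 CPM in *Tet2* KO cells (log2 ratio 0.99, 0.89 to 1.09), with a UMI in 79.1% and 91.0% of cells. The pDC/DC-like cells had 17.3 and 31.7 CPM (0.87, 0.36 to 1.41). Its DC-like part had 9.74 and 31.0 CPM (1.67, 0.78 to 2.69) and its pDC-like part 25.1 and 32.6 CPM (0.37, -0.29 to 1.06), the latter under 1.5-fold. Cluster 12 had 27.8 and 65.1 CPM (1.23, 0.50 to 1.99), and monocyte-like cells 3.12 and 10.98 CPM (1.82, 0.75 to 3.09) from 8 and 60 UMIs. Neutrophil-like cells had 7.77 and 5.94 CPM (-0.39, -1.78 to 0.99). Hence 5 of the 6 types compared in this sort had an interval above 0 for *Ly6a*, and neutrophil-like cells did not. The types whose comparison was made in the GMP sort were also present here, and of these the mono-biased GMP-like cells (3.82 and 7.73 CPM, log2 ratio 1.02, 0.18 to 1.91) and cluster 1 (1.36, 0.02 to 2.94) had intervals above 0, whereas neutro-biased GMP-like and basophil-like cells, with 6 and 8 and with 7 and 3 UMIs, did not. In the GMP sort the intervals of mono-biased GMP-like, neutro-biased GMP-like, cluster 1 and HSPC-like cells all included 0, with levels of 1.94 to 6.18 CPM, and basophil-like cells had 1 and 7 UMIs.

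T/NK-like cells had too few WT cells (17) for a comparison, and their *Ly6a* level was 21.4 CPM in WT and 316 CPM in the 86 *Tet2* KO cells. DC-like and B-like cells had 82.7 and 436 CPM in *Tet2* KO cells.

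**Figure D4:**
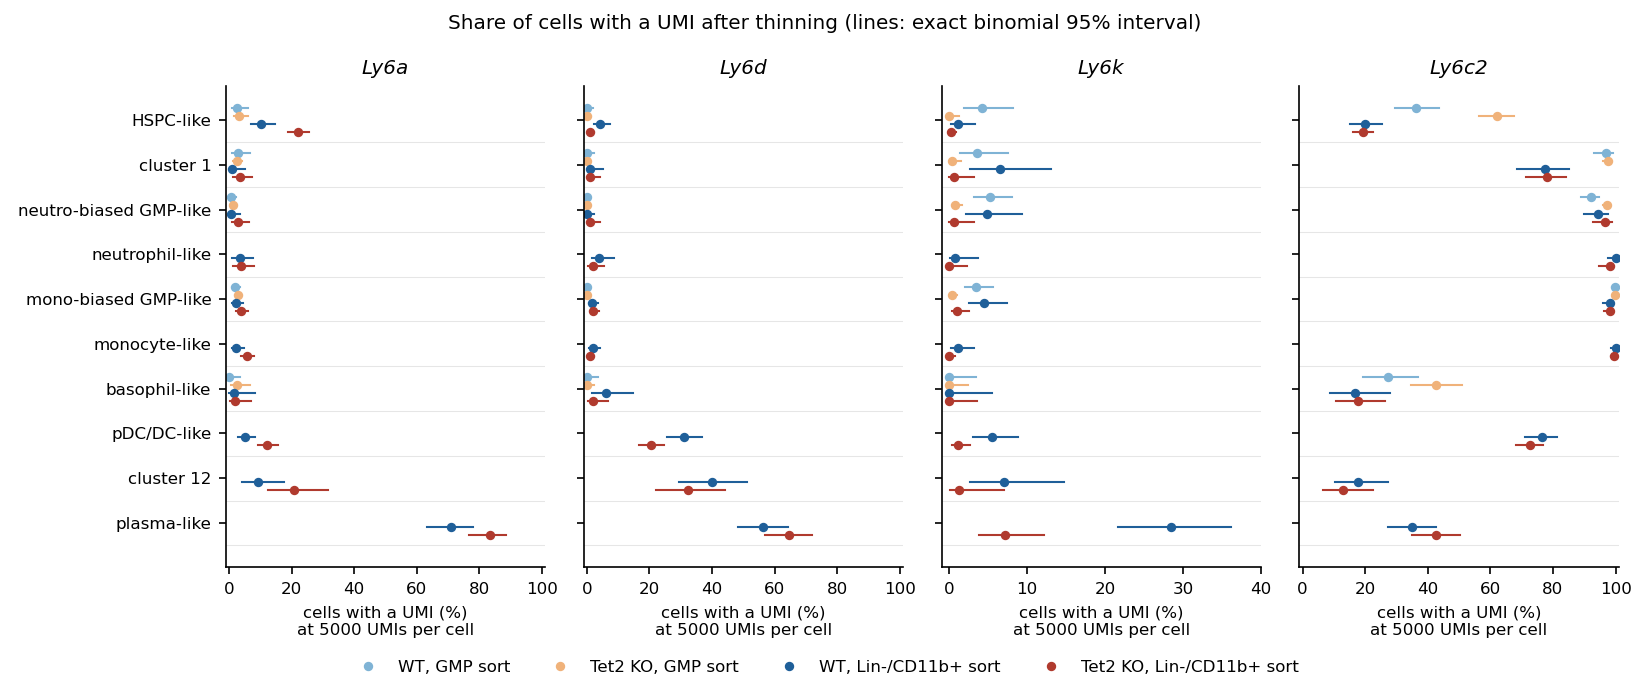
Share of cells with a UMI of *Ly6a*, *Ly6d*, *Ly6k* and *Ly6c2* after each cell was thinned to 5000 UMIs, with exact binomial 95% intervals (x axis in percent, shorter for *Ly6k*). For *Ly6a* the *Tet2* KO point of the Lin-/CD11b+ sort is right of the WT point in HSPC-like (22.0% and 10.3%) and plasma-like cells (83.2% and 70.9%), and for *Ly6k* the order is turned round (7.19% and 28.5% in plasma-like cells).

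*Ly6e*, the interferon-induced and widely transcribed member, was found in most cells of every type but WT neutrophil-like cells. Of these 42.3% held a UMI, against 56.0% of *Tet2* KO neutrophil-like cells. The *Ly6e* level was higher by less than 1.5-fold in *Tet2* KO cells of most types. In the WT Lin-/CD11b+ library its level ran from 1761 CPM in basophil-like, 1292 in pDC/DC-like, 1275 in monocyte-like, 1022 in mono-biased GMP-like and 836 in cluster 1 cells to 618 in HSPC-like, 604 in cluster 12, 515 in plasma-like, 440.5 in neutro-biased GMP-like and 174 in neutrophil-like cells. The intervals of pDC/DC-like and monocyte-like cells overlapped, as did those of HSPC-like cells and cluster 12.

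The *Tet2* KO level of *Ly6e* was above the WT level in 10 of 10 comparisons, with an interval above 0 in 9, and basophil-like cells (1644 and 1704 CPM, log2 ratio 0.05, -0.03 to 0.13) were the exception. In the Lin-/CD11b+ sort, which those 10 do not use for this type, basophil-like cells were lower in *Tet2* KO, with 1761 and 1588 CPM (-0.15, -0.27 to -0.03). These comparisons share mice, since the deposited table of cells carries 1 mouse name per genotype, and are not independent. In the GMP sort the log2 ratio was 0.20 in mono-biased GMP-like cells (994 and 1141 CPM), 0.32 in neutro-biased GMP-like cells (515 and 643 CPM) and 0.30 in cluster 1 (803 and 991 CPM). HSPC-like cells had 618 and 738 CPM in the Lin-/CD11b+ sort (0.26) and 734 and 911 CPM in the GMP sort (0.31). Monocyte-like cells had 1275 and 1488 CPM (0.22), pDC/DC-like cells 1292 and 1387 CPM (0.10), plasma-like cells 515 and 728 CPM (0.50) and cluster 12 604 and 825 CPM (0.45). Neutrophil-like cells alone were past 1.5-fold, with 174 CPM (153 to 197) in WT and 329 CPM (302 to 357) in *Tet2* KO cells (0.92, 0.70 to 1.14), against a shift of 0.28 in all genes there.

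*Ly6d*, the marker of B-cell-directed lymphoid progenitors, was found in lymphoid and plasmacytoid dendritic cells and had no UMI in any of the 1258 WT and 2719 *Tet2* KO cells of the GMP sort, which allows up to 0.131 and 0.0705 CPM at 3 counts per library. In the WT Lin-/CD11b+ library it was at 881 CPM in cluster 12, which had 7 pDC, 5 HSPC and 2 B markers above the rest and *Dntt*, *Cox6a2*, *Il7r* and *Flt3* among its leading genes, 852 in pDC/DC-like and 460 in plasma-like cells, and the first pair overlapped. The 37 WT and 63 *Tet2* KO B-like cells had 681 and 969 CPM.

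The pDC/DC-like cluster had 852 CPM (816 to 890) of *Ly6d* in WT and 350 CPM (332 to 369) in *Tet2* KO cells, a log2 ratio of -1.28 (-1.38 to -1.18). Its pDC-like part had 1710 and 762 CPM (133 WT and 175 *Tet2* KO cells, log2 ratio -1.17, -1.27 to -1.07) and its DC-like part 21.1 and 33.3 CPM (144 and 252 cells, log2 ratio 0.66, -0.0049 to 1.36). *Ly6d* was thus carried by the pDC-like part, in which 57.1% of thinned WT cells and 43.4% of thinned *Tet2* KO cells had a UMI, and where intervals of 48.3% to 65.7% and 36.0% to 51.1% overlapped. Thinned neutro-biased GMP-like cells, which should lack the gene, had 0% and 1.14%.

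Plasma-like cells went the other way, with 460 CPM (433 to 487) in WT and 947 CPM (907 to 988) in *Tet2* KO cells, a log2 ratio of 1.04 (0.94 to 1.15). A UMI was found in 74.1% and 73.7% of these cells, so the levels differed while the shares were close. After thinning the shares were 56.3% and 64.7%, with overlapping intervals. Cluster 12 had 881 and 1141 CPM (0.37, 0.23 to 0.51), and 1 *Tet2* KO cell of it held 161 of 911 UMIs.

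The HSPC-like cells in the Lin-/CD11b+ libraries had 51 *Ly6d* UMIs in WT and 8 in *Tet2* KO cells, 15.6 and 1.25 CPM (log2 ratio -3.64, -4.93 to -2.56), but 37 of the 51 came from 1 WT cell. On the scale of CPM + 1 the log2 ratio was -2.89, and without the 3 highest cells of each library it was -1.30. The basophil-like cells of the WT library likewise had 42 of 47 UMIs in 1 cell, and the *Tet2* KO neutro-biased GMP-like cells of that sort 14 of 20. Whether such cells are doublets was not tested.

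*Ly6k*, known from testis, was a low-count gene that was lower in *Tet2* KO cells in each comparison with at least 20 UMIs. Whole libraries had 238 and 66 UMIs in the WT and *Tet2* KO GMP sorts (10.4 and 1.55 CPM) and 664 and 198 UMIs in the Lin-/CD11b+ sorts (29.3 and 5.82 CPM). A UMI was found in 7.00% of WT and 0.846% of *Tet2* KO cells of the GMP sort and in 7.90% and 1.43% of the Lin-/CD11b+ cells, or after thinning in 3.74%, 0.405%, 5.72% and 0.913%. Neutrophil-like cells, with 1 UMI in 149 WT and none in 159 *Tet2* KO cells, give the background.

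Of the 7 comparisons with at least 20 UMIs over both libraries all 7 had an interval below 0. The *Tet2* KO library alone reached 20 only in neutro-biased GMP-like (40 UMIs) and plasma-like cells (144 UMIs). The others entered through the WT library, where the gene is high, so the tally is no separate support. In the GMP sort *Ly6k* was at 8.70 CPM in WT and 0.991 CPM in *Tet2* KO mono-biased GMP-like cells (log2 ratio -3.13, -4.02 to -2.34), at 13.5 and 3.22 CPM in neutro-biased GMP-like cells (-2.06, -2.64 to -1.51) and at 11.1 and 1.38 CPM in cluster 1 (-3.01, -4.19 to -1.96). HSPC-like cells had 38 UMIs in WT and none in 300 *Tet2* KO cells of the GMP sort, at least 17.7-fold lower against a floor of 3 counts, and 32 and 2 UMIs in the Lin-/CD11b+ sort (9.82 and 0.313 CPM). The 3 highest WT HSPC-like cells held 50% of the WT UMIs in the GMP sort and 56.3% in the Lin-/CD11b+ sort. In cluster 1 of the GMP sort 3 *Tet2* KO cells held all 10 UMIs.

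In the other types of the Lin-/CD11b+ sort, plasma-like cells held most of the *Ly6k* UMIs, 431 in WT and 144 in *Tet2* KO cells, 173 CPM (157 to 190) and 64.0 CPM (53.9 to 75.3). The log2 ratio was -1.43 (-1.72 to -1.16), the smallest of the 7, and 28.5% (21.6% to 36.2%) against 7.19% (3.77% to 12.2%) of thinned cells had a UMI. The 3 highest *Tet2* KO plasma-like cells held 53.5% of the UMIs, and without the 3 highest of each library the log2 ratio was -2.201. The pDC/DC-like cells had 19.4 and 3.78 CPM (-2.36, -3.30 to -1.49), with 41 and 9 UMIs in the pDC-like part (-2.72, -3.94 to -1.65) and 6 and 6 in the DC-like part (-0.85, -2.76 to 1.05). Cluster 12 had 26.6 and 5.01 CPM (-2.41, -4.40 to -0.86), and 3 WT cells held 73.9% of the WT UMIs. In monocyte-like cells 7 WT UMIs stood against 0 in *Tet2* KO cells, and in basophil-like cells of the GMP sort 5 against 0, below the limit of 20. The GMP-like types and the unnamed cluster 1 of the Lin-/CD11b+ sort were cells that the GMP comparisons did not use. They carry the same mouse name per genotype, however, and so are no replicate of those comparisons. They had 10.1 and 1.89 CPM (mono-biased), 8.59 and 3.42 CPM (neutro-biased) and 15.2 and 0.462 CPM (cluster 1), all with intervals below 0.

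Members found together in a cell were counted against the product of their single shares. In thinned WT plasma-like cells 42.4% had UMIs of both *Ly6a* and *Ly6d*, against 39.9% if the 2 were found independently, and in *Tet2* KO plasma-like cells 56.9% against 53.8%. The *Tet2* KO B-like cells had *Ly6a* with *Ly6d* in 46.0% (33.4% to 59.1%) against 33.4%. These are descriptions of cells of 1 library each.

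Over the 33 profiles of a type in a library, the genes whose log2(CPM + 10) ran most like a member were named from 3799 genes that reached 50 CPM, by Pearson's r and with no test, since profiles share libraries and depth. *Ly6a* ran with *Pou2af1*, *Iglc2*, *Fcrla*, *Cd79a* and *Mzb1* (r 0.91), genes of B and plasma cells, and *Ly6d* with *Sdc4*, *Blnk*, *Cmah*, *Tcf4* and *Lgmn* (r 0.83 to 0.91), of which *Tcf4* is known as a plasmacytoid dendritic cell factor. *Ly6g* ran with *Orm1*, *Itgb2l*, *Ceacam10*, *4930438A08Rik* and *Stk39* (r 0.98 to 0.99), although *Ly6g* had 20 UMIs in only 3 profiles. *Ly6c2* ran with *Gm21188*, *F10*, *Clec5a*, *Mtus1* and *Ftl1* (r 0.81 to 0.84), *Ly6e* with *Sept11*, *Itm2c*, *Lgals1*, *Bscl2* and *P2rx4* (r 0.81 to 0.90), and *Ly6k* with *Igkv3-4*, *Epcam*, *Mt2*, *Igkv3-12* and *Ighg2c* (r 0.82 to 0.83).

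Of 37 other genes of the Ly6 and uPAR family, 20 were in the counts and 7 had at least 20 UMIs in a library. *Plaur*, the receptor of urokinase, was at 14.8, 14.6, 25.6 and 23.8 CPM in the WT GMP, *Tet2* KO GMP, WT Lin-/CD11b+ and *Tet2* KO Lin-/CD11b+ libraries, and was highest in WT neutrophil-like cells (135 CPM). *Cd59a* and *Cd59b*, which inhibit complement, were at 2.78 to 3.67 and 0.564 to 0.705 CPM. *Lynx1*, *Ly6g5b* and *Pate2* were at 1.85 CPM or less. *Ly6i*, which lies between *Ly6e* and *Ly6a* (chr15:74979534-74983430), was at 2.58 and 8.20 CPM in the GMP sort and at 4.23 and 14.1 CPM in the Lin-/CD11b+ sort. It was past 1.5-fold higher in *Tet2* KO cells in 6 of the 7 comparisons with 20 UMIs over both libraries. An example is 8.18 and 37.0 CPM in monocyte-like cells (log2 ratio 2.18, 1.53 to 2.90), and plasma-like cells were the exception (11.23 and 7.995 CPM). Neutro-biased GMP-like (5 and 38 UMIs), cluster 1 (13 and 87), neutrophil-like (12 and 41) and pDC/DC-like cells (9 and 46) passed 20 only through the *Tet2* KO library.

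Since all mice had pI:pC and several Ly6 genes are known to respond to interferon, 44 interferon-stimulated genes were set beside the members, of which 43 were counted. In monocyte-like cells 26 of the 40 with 20 UMIs were past 1.5-fold higher in *Tet2* KO cells and 0 lower, with a median log2 ratio of 0.87 against 0.02 over all genes. In the same cells *Rtp4*, an interferon-induced gene, was at 3.89 and 22.7 CPM and *Isg15*, a ubiquitin-like modifier, at 13.6 and 48.9 CPM. By contrast *Bst2* (176 and 170 CPM) and *Gbp3* (30.4 and 20.7 CPM) were not higher. In pDC/DC-like cells 18 of 33 were higher (median 0.64), in HSPC-like cells 14 of 39 (0.41), in neutrophil-like cells 12 of 27 with 1 lower (0.47, against 0.28 over all genes), and in basophil-like cells 10 of 27 (0.42). In HSPC-like cells *Iigp1* (2.15 and 15.8 CPM) and *Gbp2* (5.22 and 19.1 CPM) had the highest ratios, whereas *Ifi35* (42.0 and 39.9 CPM) and *Oas1a* (19.0 and 16.9 CPM) were not higher. The counts were 6 of 30 in mono-biased GMP-like cells (0.24), 3 of 32 in neutro-biased GMP-like cells (0.16), 6 of 28 with 1 lower in cluster 1 (0.20), 6 of 21 with 1 lower in plasma-like cells (0.31), and 0 of 21 with 1 lower in cluster 12 (0.11). Of all genes tested, the share past 1.5-fold higher was 8.83% in monocyte-like, 7.15% in pDC/DC-like, 5.98% in HSPC-like, 23.4% in neutrophil-like, 6.88% in basophil-like and 13.2% in plasma-like cells, 2.04% in mono-biased GMP-like and 2.45% in neutro-biased GMP-like cells, 3.69% in cluster 1 and 7.63% in cluster 12.

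The 28 genes that make or attach the GPI anchor, of which 27 were counted, were set beside them in the same way. In plasma-like cells 3 of the 12 with 20 UMIs were past 1.5-fold higher and 1 was lower, with a median of 0.27 against 0.13 over all genes. In the other 9 comparisons the medians lay between -0.12 and 0.23, the latter in neutrophil-like cells (0.28 over all genes), and 0 to 2 were higher. In HSPC-like cells 2 of 24 were higher and 1 was lower (median -0.05).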

How the data were processed

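The authors sequenced 4 10x Genomics 3′ libraries and deposited UMI counts per gene and cell, made with Cell Ranger 3.1.0 on mm10 and filtered in Seurat, as the submitters' processing notes and the study's methods have it. The stated filter removes cells under 5000 UMIs or at 5% or more mitochondrial UMIs, but some deposited cells exceed the latter. The study's methods and its design text name different kit versions, and its listing of cell numbers exchanges those of the WT Lin-/CD11b+ and *Tet2* KO GMP libraries, so the deposited assignment was used. The members and lists were chosen with earlier results of these data known.

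From the deposited counts, cells were clustered without the members (Scanpy 1.11.5, leidenalg 0.10.2, 2000 variable genes, 30 components, resolution 0.8), and types were named from at least 3 markers. UMIs summed within a library and type became CPM, bounded by exact Poisson intervals, with ratios given exact conditional binomial intervals and shares with exact binomial (Clopper-Pearson) intervals, all at 95% and for counting error only. Ratios were called at 1.5-fold on CPM + 1, a scale that understates low genes, for genes with at least 20 UMIs. The Scrublet caller marked 0.346% of cells as doublets and is taken not to have worked, so no cell was removed and the highest 5% of scores were left out as an alternative. Scaling by TMM used edgeR 4.0.16, with no test. Named were all members, the 5 genes most like each, relatives with 20 UMIs in a library, and the 2 highest and 2 lowest interferon genes with at least 100 UMIs. The intervals and the 1.5-fold call alone were tested on simulated data, with Poisson counts drawn from summed UMIs and 200 genes changed. Of unchanged genes, 5.13% in HSPC-like and 1.61% in neutro-biased GMP-like cells were past 1.5-fold. Such draws lack the clumping of UMIs in single cells, and clustering, naming, thinning and gating were not tested.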

Additional observations from a re-analysis of the deposited data

Results flagged for a closer look

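Several members had *Tet2* KO to WT ratios of opposite sign in different cell types, and none of these differences between types was tested. For *Ly6c2* the log2 ratio was 1.21 in plasma-like and -0.44 in pDC/DC-like cells. For *Ly6d* it was 1.04 in plasma-like and -3.64 in HSPC-like cells, the latter with 37 of 51 WT UMIs in 1 cell. For *Ly6g* it was 1.5 in monocyte-like cells and -0.53 in neutrophil-like cells. The former came from 6 and 36 UMIs and reversed with raw gating, so no change is read from it. Outside the comparisons, *Ly6a* was at 316 CPM in *Tet2* KO T/NK-like cells, a type with 17 WT cells.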

How the results depend on the processing

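No paired analysis was possible because each genotype and sort has 1 library. Of 19 member ratios past 1.5-fold, 12 were past it under all alternatives run and 7 were not under at least one. *Ly6c2* in neutro-biased GMP-like cells was at 0.44 and 0.58 with types gated on raw and on scaled markers of single cells and at 0.55 in the other sort, *Ly6a* in HSPC-like cells at 0.39 in the other sort, and *Ly6c2* in plasma-like cells at 0.51 with scaled gating. *Ly6g* in monocyte-like cells was at 0.43 with an offset of 10 CPM and reversed to -1.24 with raw gating. *Ly6a* in pDC/DC-like cells was at 0.36 in the pDC-like part. *Ly6d* in pDC/DC-like cells reversed to 0.63 in the DC-like part, and in HSPC-like cells it had no UMI in the other sort. The count of members past the limit went from 1 to 2 in mono-biased GMP-like cells (without the 3 highest cells, scaled gating, other sort), from 2 to 1 in neutro-biased GMP-like cells (both gates, and to 3 with thinning), from 1 to 2 in cluster 1 (no filter, other sort), from 2 to 1 in monocyte-like cells (offset of 10 CPM, scaled gating) and to 3 (no filter, thinning) and from 2 to 4 in cluster 12 (no filter, thinning). In basophil-like cells it went from 0 to 3 without the filter and to 1 (*Ly6c2*) by the mean over cells, with thinning, without the highest doublet scores, without the 3 highest cells and with scaled gating, and to 1 (*Ly6d*) in the other sort. In neutrophil-like cells it went from 1 to 2 (TMM, which added *Ly6g*, thinning, doublet scores), 3 (no filter, without the 3 highest cells), 5 (raw gating) and 4 (scaled gating). The cause was not tested. The count also went from 3 to 4 in HSPC-like and pDC/DC-like cells without the filter and to 2 in HSPC-like cells of the other sort, and from 4 to 6 (no filter), 5 (raw gating) and 3 (scaled gating) in plasma-like cells. Of 45 log2 ratios, TMM moved 8, thinning 10 and leaving out cells over the mitochondrial limit 1 beyond the counting interval. The other sort moved 11 of the 20 it covered and scaled gating 12 of 31. Raw gating moved 9 of 19 and reversed 1. In the DC-like part of the pDC/DC-like cluster 4 of 5 moved and 1 reversed. Levels moved as well, with 68 of 112 CPM values beyond the counting interval under raw gating and 43 of 231 by the mean over cells. Of 231 shares of cells with a UMI, thinning moved 94. Raw gating put 69.0% of cells in 1 type and matched the cluster type in 33.4%. Gates and the finer resolution gave no value for unnamed clusters. Neither they nor the other sort gave one for types under 50 cells. Scaled gating and the parts of clusters were chosen after seeing the data.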
